A study of Mus musculus with 36 samples.

Results

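Whole blood of the inbred mouse strains C3H/HeJ and C57Bl/6J was compared gene by gene. The comparison rested on 6 arrays of the 36 in the series, those hybridized with GLOBINclear RNA of 3 C3H/HeJ and 3 C57Bl/6J mice, and every difference below is C3H/HeJ minus C57Bl/6J. The arrays were chosen by the preparation and strain in their titles. The 6 arrays of whole RNA from the same mice were used to check directions. All mice were untreated males, 8 weeks old at blood collection. Blood was drawn from the heart under isoflurane into EDTA, then put into Trizol, and total RNA was extracted. GLOBINclear is a kit that captures alpha and beta globin mRNA and removes it, and it was applied to a portion of each RNA extract before labelling. The study measured the effect of this step in 6 strains, with 3 mice and 6 arrays each. The other 4 strains (129S1/ImJ, A/J, DBA/2J and FVB/NJ) entered here as a common estimate of the spread and as points of reference. The arrays were Affymetrix expression arrays on which a set of short probes reports each transcript, and the values are the deposited log2 expression summaries, so that a difference of 1 is a doubling.

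C3H/HeJ and C57Bl/6J are the parents of the BXH recombinant inbred strains, which are used to map genes that affect blood, lipid and immune traits. The strains carry different haplotypes of the H2 complex, the mouse major histocompatibility complex, whose class I and class II molecules present peptides to T cells: C3H/HeJ carries haplotype k and C57Bl/6J haplotype b. C3H/HeJ is also known for a Tlr4 mutation that makes its cells unresponsive to bacterial lipopolysaccharide. Most RNA in blood comes from reticulocytes, the youngest red cells, with platelets and white cells making up the rest. In such bulk RNA, fewer cells of a type and less of a transcript per cell cannot be told apart.

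Of 11353 genes tested in GLOBINclear RNA, 487 (4.29%) differed between the strains by limma at an adjusted p below 0.05. C3H/HeJ was higher for 182 genes (1.6% of those tested) and lower for 305 (2.69%). The difference was at least 2-fold for 380 of them, 145 higher and 235 lower. All 487 had arrays of the strains that did not overlap, which held for 16.4% of all tested genes. The split by direction depended on the scaling: 37.4% of the calls were higher in C3H/HeJ on the deposited values, 44.6% after median centring and 53.7% after quantile normalization. It was 48.0% when the 6 arrays were fitted without the other strains. The median difference of all tested genes was -0.05. Called genes lay on every autosome, from 3.07% of the tested genes on chromosome 13 to 6.63% on chromosome 12, and chromosome 17, which carries H2, stood at 6.18%.

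Array quality was compared first. Blood markers were high on all 6 arrays (Slc4a1, the red cell anion exchanger, between 13.03 and 13.37, and Alas2, the first enzyme of heme synthesis in red cells, between 13.99 and 14.19), while liver markers did not pass 2.91. C57Bl/6J replicate 1 stood apart. It correlated with the other C57Bl/6J arrays at 0.951 and 0.918, against 0.981 between those, and against 0.973 to 0.988 among the C3H/HeJ arrays. It also had the highest T cell marker level (mean 6.52, against 5.06 and 4.36). Cardiac muscle genes were mixed on this array. Myl2 (4.46), Actc1 (4.32), Tnni3 (3.96) and Tnnt2 (3.975) were at their highest there. Myh6 (3.17) and Myl7 (2.40) were at their lowest, and Nppa (2.09) and Myl3 (3.33) were not raised. The 95th percentile of the arrays was 0.25 lower in C3H/HeJ, and the adult globin probe sets were 0.61 higher in C3H/HeJ (exact permutation p = 0.1 for each, the smallest that 3 against 3 arrays allow). The part of these measures in the gene differences was not tested. Without C57Bl/6J replicate 1 the count of called genes was 621, and without C3H/HeJ replicate 2, C3H/HeJ replicate 3 or C57Bl/6J replicate 2 it was 310, 291 or 298. Of the 487 genes, 232 were called without each of the 6 arrays in turn, 96 higher and 136 lower.

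Josd2, which encodes a deubiquitinating enzyme, had one of the widest differences in favour of C3H/HeJ. Josd2 read 10.06, 9.93 and 10.16 on the C3H/HeJ arrays and 3.40, 3.97 and 4.49 on the C57Bl/6J arrays, a difference of 6.09 ± 0.51 (SE, n = 3 per strain, adjusted p = 3.47e-06 by limma). The C3H/HeJ arrays lay close together and far above all C57Bl/6J arrays. In the other 4 strains Josd2 ranged from 5.85 in DBA/2J to 9.62 in FVB/NJ, so that C57Bl/6J was the lowest strain of the 6. In whole RNA the difference was 5.25 ± 0.52.

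Hbegf, which encodes the heparin-binding EGF-like growth factor, was expressed in C3H/HeJ blood and near the bottom of the scale in C57Bl/6J blood. It read 7.74, 7.60 and 8.04 in C3H/HeJ and 2.17, 2.21 and 2.22 in C57Bl/6J, with a difference of 5.60 ± 0.08 and an adjusted p of 6.14e-16. All 4 other strains lay between 2.17 and 2.20, at the C57Bl/6J level, and the C3H/HeJ arrays alone were high. Whole RNA gave 5.58, 5.81 and 6.04 against 2.23, 2.26 and 2.29. A value at the bottom of this scale carries background, so the size of the difference is compressed.

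Ppp1r21 had the same arrangement over the strains. This gene, whose product takes part in endosomal sorting, read 7.38, 8.40 and 8.89 in C3H/HeJ and 4.89, 2.89 and 2.49 in C57Bl/6J (4.80 ± 0.53, adjusted p = 6.26e-05). The highest of the other strains was 129S1/ImJ at 3.87. Redrum, an erythroid long non-coding RNA, read 8.55, 8.07 and 8.81 against 3.73, 3.82 and 4.95 (4.31 ± 0.28, adjusted p = 2.45e-07), and the other strains did not pass 3.54. For both genes the groups were far apart, and the C3H/HeJ level lay outside the range of the 5 other strains.

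Glrx showed the opposite arrangement, with C57Bl/6J alone low. Glrx encodes glutaredoxin, an enzyme that reduces protein thiols with glutathione. Its values were 9.07, 9.16 and 9.46 in C3H/HeJ and 4.75, 4.44 and 4.59 in C57Bl/6J (4.64 ± 0.53, adjusted p = 8.32e-05), and the other strains lay between 8.71 and 10.00. A second probe set of Glrx gave 4.58 ± 0.57. Pcp4l1, a relative of a calmodulin-binding protein of Purkinje cells, was also lowest in C57Bl/6J, at 3.29, 3.94 and 5.24 against 7.43, 8.83 and 8.99 in C3H/HeJ and 7.76 to 8.89 in the other strains (4.26 ± 0.54, adjusted p = 0.000213).

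The other genes among the 15 that stood highest in C3H/HeJ differed by 2.74 to 3.49. They were Hs6st1 (3.49), a heparan sulfate sulfotransferase, 2310034O05Rik (3.48), Klf1 (3.25), Alad (3.20), Tac2 (3.15), the neurokinin B precursor, Tfrc (3.09), Gm10419 (2.93), Ttc9 (2.76) and Ankrd33b (2.74). Ttc9 separated the strains into a pair of levels: it read 5.50, 5.31 and 5.05 in C3H/HeJ with 5.50 in A/J and 5.17 in DBA/2J, and 2.50, 2.54 and 2.55 in C57Bl/6J with 2.54 in 129S1/ImJ and 2.58 in FVB/NJ. Its difference was 2.76 ± 0.15 in GLOBINclear RNA and 3.21 ± 0.28 in whole RNA (adjusted p = 3.56e-08 and 1.32e-05).

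**Figure D1:**
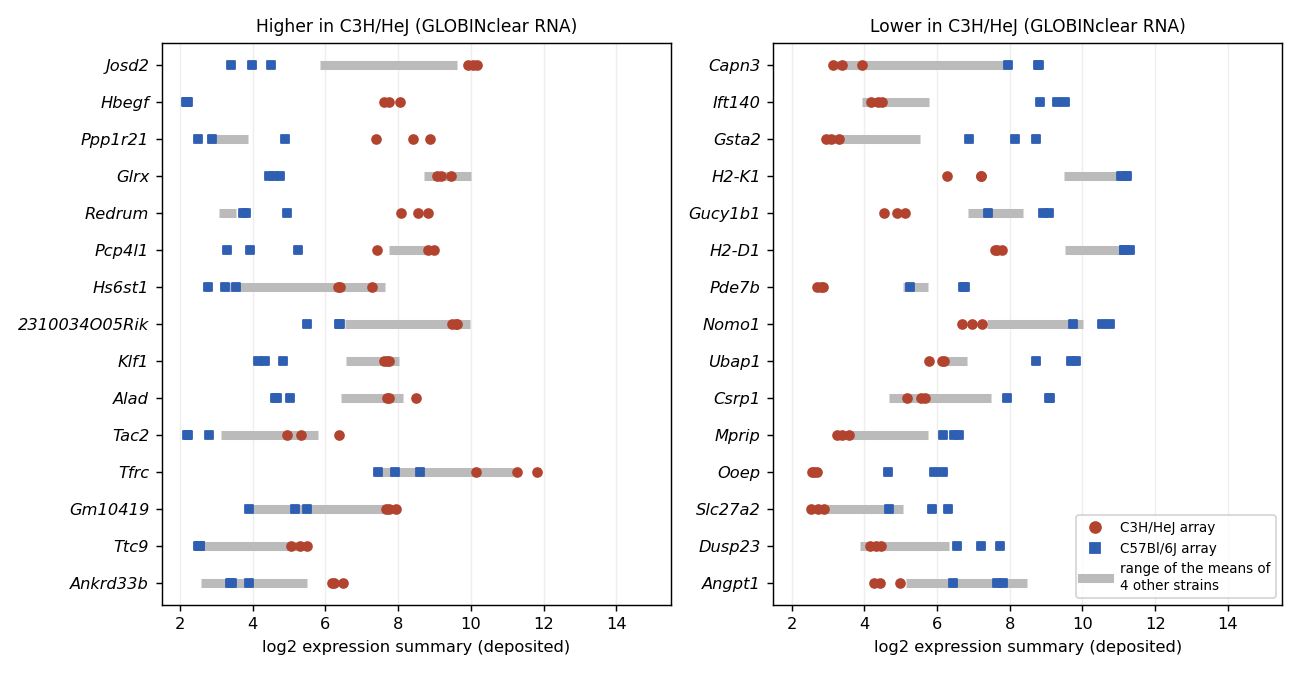
The 15 genes most above and the 15 most below C57Bl/6J in C3H/HeJ blood, with each GLOBINclear array as a point on the deposited log2 scale (x axis) and genes on the y axis; grey bars span the means of the 4 other strains. Only genes without overlap of the red C3H/HeJ points and blue C57Bl/6J points were eligible. Hbegf is at 2.17 to 2.22 in every strain but C3H/HeJ.

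Capn3 was among the genes furthest below C57Bl/6J in C3H/HeJ. It encodes calpain 3, a calcium-dependent protease best known from skeletal muscle, and it read 3.40, 3.94 and 3.14 in C3H/HeJ and 7.95, 8.77 and 8.81 in C57Bl/6J (-5.01 ± 0.36, adjusted p = 7.39e-07). The C3H/HeJ arrays were near the bottom of the scale, where differences are compressed, as was 129S1/ImJ at 3.25, whereas DBA/2J reached 7.84. Whole RNA gave -3.49 ± 0.22, and a second probe set gave -3.47 ± 0.29.

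In Ift140 and Gsta2 it was C57Bl/6J that stood apart from the other strains. Ift140, a component of the intraflagellar transport complex that serves cilia, read 4.49, 4.18 and 4.39 in C3H/HeJ and 8.82, 9.29 and 9.52 in C57Bl/6J (-4.86 ± 0.74, adjusted p = 0.00103), with 5.79 as the highest mean among the other strains. Gsta2, an alpha-class glutathione S-transferase, read 2.94, 3.31 and 3.08 against 6.87, 8.14 and 8.71 (-4.80 ± 0.35, adjusted p = 8.35e-07). A/J, DBA/2J and FVB/NJ lay between 3.12 and 3.28, with the C3H/HeJ arrays, and 129S1/ImJ was intermediate at 5.54. Oocyte-expressed Ooep, at 2.55, 2.61 and 2.69 against 4.66, 5.91 and 6.16, was likewise above the bottom of the scale on the C57Bl/6J arrays alone, with means of 2.61 to 2.64 in all other strains (-2.96 ± 0.25, adjusted p = 3.43e-06).

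Gucy1b1 and Pde7b were low in C3H/HeJ alone. Gucy1b1 encodes the beta subunit of soluble guanylate cyclase, the receptor for nitric oxide, and read 4.55, 4.91 and 5.11 in C3H/HeJ and 7.40, 8.90 and 9.09 in C57Bl/6J (-3.61 ± 0.46, adjusted p = 0.000224). The other strains lay between 6.86 and 8.35, above every C3H/HeJ array. Pde7b, a cyclic AMP phosphodiesterase, read 2.86, 2.81 and 2.70 against 5.26, 6.72 and 6.76, and the other strains lay between 5.06 and 5.75 (-3.46 ± 0.52, adjusted p = 0.000999). In whole RNA Gucy1b1 differed by -3.62 ± 0.45, and Pde7b by -1.33 ± 0.36, which did not pass there (adjusted p = 0.0968).

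Besides H2-K1 and H2-D1, described next, the lower genes were Nomo1 (-3.38), Ubap1 (-3.38), a subunit of the ESCRT sorting machinery, Csrp1 (-3.24), a LIM domain protein, Mprip (-2.99), a myosin phosphatase partner, Slc27a2 (-2.90), a fatty acid transporter, Dusp23 (-2.85), a phosphatase, and Angpt1 (-2.73), a ligand of the Tie2 receptor. Ubap1 read 6.19, 5.77 and 6.14 in C3H/HeJ, close to the 6.08 to 6.82 of the other strains, and 8.72, 9.69 and 9.81 in C57Bl/6J, and its second probe set gave -3.72 ± 0.26. Angpt1 read 4.27, 4.44 and 4.98 against 6.43, 7.64 and 7.80, and C3H/HeJ was the lowest of the 6 strains. By a rule of at least log2 6 in one strain and under log2 3.5 in the other, Hbegf, Ppp1r21, Hs6st1 and Slfn4 were on in C3H/HeJ alone of the pair, and Capn3, Gsta2, Pde7b and Mprip in C57Bl/6J alone. Slfn4, a Schlafen family gene of myeloid cells, read 6.02, 6.50 and 5.80 against 3.77, 3.09 and 3.45 (2.67 ± 0.48, adjusted p = 0.00373).

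The class I genes of H2 were measured by several probe sets each, and those of H2-D1 differed in opposite directions. H2-K1 and H2-D1 encode the heavy chains of the classical class I molecules K and D, whose sequences differ between haplotypes. The brightest set of H2-K1 read 7.20, 6.28 and 7.22 in C3H/HeJ and 11.21, 11.20 and 11.05 in C57Bl/6J (-4.25 ± 0.35, adjusted p = 3.3e-06). That of H2-D1 read 7.58, 7.79 and 7.66 against 11.31, 11.14 and 11.14 (-3.52 ± 0.32, adjusted p = 8.02e-06). On both sets the C57Bl/6J arrays were uniformly high, and so were the other strains, at 9.49 to 11.09 for H2-K1 and 9.53 to 11.37 for H2-D1.

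Of 8 tested H2-D1 sets, 4 were lower in C3H/HeJ and 2 higher at an adjusted p below 0.05. One of the latter read 9.83, 9.40 and 9.28 in C3H/HeJ and 4.81, 4.63 and 4.46 in C57Bl/6J (4.87 ± 0.22, adjusted p = 3.17e-09), and the other 4 strains lay between 4.56 and 4.68 on it. The C3H/HeJ arrays alone were high on it. The other set that was higher differed by 1.19 ± 0.21 (adjusted p = 0.00375), by -0.31 in whole RNA, and read 10.47 to 10.55 in A/J and DBA/2J. A further pair of sets was near the bottom of the scale in both parents, at -0.04 and 0.40 with neither passing the test, and read 9.65 to 9.94 in A/J and DBA/2J. Averaging all H2-D1 sets gave -0.76 with an adjusted p of 0.103. Of 4 tested H2-K1 sets, 2 were lower in C3H/HeJ and none was higher. The dimmer of those 2 sets differed by -4.05 ± 0.49 and was low in A/J too, at 5.64 against 6.06 in C3H/HeJ. On it 129S1/ImJ, DBA/2J and FVB/NJ lay between 9.12 and 10.69. Whether the probes match the allele of each strain was not tested, because the probe sequences were not used here. The list of class I heavy chains had 0 higher and 2 lower members of 12 tested (median -0.23, and -0.12 without C57Bl/6J replicate 1), and these were H2-K1 and H2-D1. The share called was 16.7%, against 4.29% of all tested genes.

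**Figure D2:**
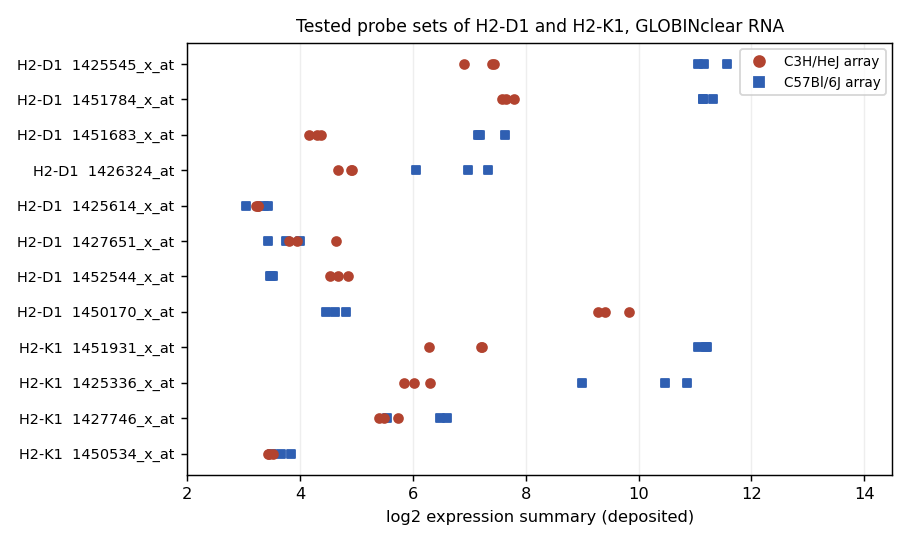
Each tested probe set of H2-D1 and H2-K1 (y axis, with the array's own set names) on the 3 C3H/HeJ and 3 C57Bl/6J GLOBINclear arrays (x axis, deposited log2 scale). Sets of H2-D1 lie on opposite sides, while no H2-K1 set is higher in C3H/HeJ: the H2-D1 set read at 9.28 to 9.83 in C3H/HeJ is at 4.46 to 4.81 in C57Bl/6J, while the brightest H2-D1 set is at 7.58 to 7.79 against 11.14 to 11.31.

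None of 10 tested class II genes passed in either direction (median -0.37, and 0.09 without C57Bl/6J replicate 1). H2-Ab1, the beta chain of the class II molecule A, read 6.04, 4.72 and 5.02 in C3H/HeJ and 8.33, 7.57 and 5.91 in C57Bl/6J (-2.01 ± 0.59). Its groups overlapped, with the lowest C57Bl/6J array below the highest of C3H/HeJ, and its adjusted p was 0.0813, or 0.0362 with the replicate number as a block and 0.0132 without C57Bl/6J replicate 3. H2-Ea, the alpha chain of the class II molecule E, is not expressed from haplotype b. Its brightest set read 4.89, 3.78 and 3.82 against 3.30, 3.38 and 3.12 (0.90 ± 0.26, adjusted p = 0.0725). A second set of H2-Ea read 5.12, 4.53 and 4.61 in C3H/HeJ and 2.66, 2.73 and 2.86 in C57Bl/6J (2.00 ± 0.25, adjusted p = 0.000198), with 9.20 in DBA/2J and 2.71 in 129S1/ImJ. The mean of all H2-Ea sets, which includes this second set, passed (adjusted p = 0.00144). The brightest set passed after median centring (0.0478), after quantile normalization (0.0446) and on the mean of both arrays of a mouse (0.0311). H2-Aa, H2-Eb1, H2-DMa, H2-DMb2, H2-Oa, H2-Ob, Cd74 and Ciita differed by -1.09 to 0.26 with adjusted p-values from 0.498 to 0.975.

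Red cell genes passed in both directions. Among 22 tested genes of the red cell membrane and skeleton 4 were higher and 0 lower (median 0.29). Other erythroid genes had 3 higher and 1 lower of 25 (median -0.06), heme synthesis 1 and 1 of 14 (median 0.01), and adult globins 1 and 0 of 2. The 3 higher erythroid genes include Prdx2 by its brightest set, although its second set went the other way. The whole table had 1.6% higher and 2.69% lower. When every probe set of a gene was averaged in, the counts became 3 and 1 for membrane genes and 1 and 3 for other erythroid genes. Without C57Bl/6J replicate 1 the membrane median was 0.07. The median of other erythroid genes ranged from -0.19 to 0.06 with 1 array left out.

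Klf1, the erythroid transcription factor that activates adult beta globin, had tight C3H/HeJ values of 7.68, 7.62 and 7.76, against 4.13, 4.34 and 4.84 in C57Bl/6J (3.25 ± 0.53, adjusted p = 0.00193). The other strains lay between 6.56 and 8.01, and C57Bl/6J was the low one. In whole RNA Klf1 differed by 1.91 ± 0.54 and did not pass (adjusted p = 0.122). Alad, the second enzyme of heme synthesis, read 7.76, 7.69 and 8.49 against 4.62, 4.67 and 5.04 (3.20 ± 0.36, adjusted p = 7.7e-05), and again the other strains, at 6.42 to 8.15, were above every C57Bl/6J array. Tfrc, the transferrin receptor that brings iron into the cell, read 10.14, 11.28 and 11.82 against 7.45, 7.92 and 8.60 (3.09 ± 0.59, adjusted p = 0.00644). Its C3H/HeJ arrays were spread more widely than those of Klf1, all above C57Bl/6J, and averaging the 3 sets gave 1.84 with an adjusted p of 0.0692.

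Ermap, an erythroid membrane protein of the Scianna blood group, read 6.00, 6.57 and 6.98 in C3H/HeJ and 3.59, 3.77 and 4.47 in C57Bl/6J (2.57 ± 0.44, adjusted p = 0.00288). Icam4, the Landsteiner-Wiener blood group protein, read 5.29, 5.72 and 6.76 against 3.12, 3.40 and 4.06 (2.40 ± 0.42, adjusted p = 0.00298). Both were without overlap, and both were lower in C57Bl/6J than in each of the other 4 strains. Add2, the beta subunit of the membrane skeleton protein adducin, differed by 2.57 ± 0.39 on its brightest set, while its 3 dimmer sets gave 0.21, -0.01 and 0.45, none past the test. Aqp1, the red cell water channel, differed by 1.52 ± 0.33 (adjusted p = 0.0135), and its call was lost without C3H/HeJ replicate 3 or C57Bl/6J replicate 2 (highest adjusted p 0.0871).

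Promoters of the red cell genes that were higher were searched because the gene of KLF1, an activator of red cell genes, was among them. KLF1 binds the motif CACCC and GATA1, the other main erythroid factor, binds GATAA. Of the 8 red cell genes that were higher, not counting Prdx2, whose probe sets disagreed, 7 had a promoter in the RefSeq table (GRCm38.p6), and all 7 held CACCC on either strand within 250 bases upstream of a start, as did 52.0% of all 32851 promoters of that length. GATAA on either strand was found in 3 of the 7 and in 22.6% of all promoters, and both motifs together in 10.1% of all. The 100 bases upstream of the start of those 3 genes are given 5′ to 3′ on the gene's strand, with CACCC or its complement GGGTG and GATAA or its complement TTATC in capitals. In Klf1 the CACCC lies further upstream than the stretch shown. These motifs do not overlap each other, and a match is a description, not a bound site.
Ermap, chr4:119189996-119190095, minus strand: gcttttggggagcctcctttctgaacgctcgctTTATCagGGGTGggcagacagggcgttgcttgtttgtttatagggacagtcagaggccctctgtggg
Icam4, chr9:21029332-21029431, plus strand: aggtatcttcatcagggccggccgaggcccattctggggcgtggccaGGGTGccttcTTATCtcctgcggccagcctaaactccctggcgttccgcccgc
Klf1, chr8:84901882-84901981, plus strand: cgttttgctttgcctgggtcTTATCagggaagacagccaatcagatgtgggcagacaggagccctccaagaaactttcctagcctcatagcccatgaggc

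Hbb-b2, an adult beta globin gene, read 8.15, 8.12 and 8.13 in C3H/HeJ and 4.75, 6.17 and 6.05 in C57Bl/6J after globin depletion (2.48 ± 0.38, adjusted p = 0.000999). Before depletion it read 11.44, 11.47 and 11.48 against 8.78, 8.89 and 9.31 (2.47 ± 0.24, adjusted p = 4.01e-05), so the gap between the strains was as wide in whole RNA. The strains are known to carry different beta globin haplotypes, and a second, dim set of Hbb-b2 gave 0.11 ± 0.05. Prdx2, the abundant peroxiredoxin of red cells, read 13.69, 13.85 and 13.67 against 12.88, 12.98 and 13.18 (0.72 ± 0.12, adjusted p = 0.00164), but its second set gave -2.26 ± 0.28 and the average of both -0.77. No direction is given for Prdx2 for that reason.

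Red cell genes also went the other way. Tspo2, an erythroid protein of the cholesterol and porphyrin transporter family, read 8.37, 8.47 and 9.03 in C3H/HeJ and 11.07, 10.96 and 11.25 in C57Bl/6J (-2.47 ± 0.46, adjusted p = 0.00525). C57Bl/6J was above all other strains, the highest of which was A/J at 8.82. Nfe2, a transcription factor of red cell and platelet precursors, read 7.71, 7.61 and 7.57 against 8.28, 9.16 and 9.21 (-1.26 ± 0.25, adjusted p = 0.00811), and did not pass without C57Bl/6J replicate 2 (adjusted p = 0.0532) or with the 6 arrays alone (0.119).

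**Figure D3:**
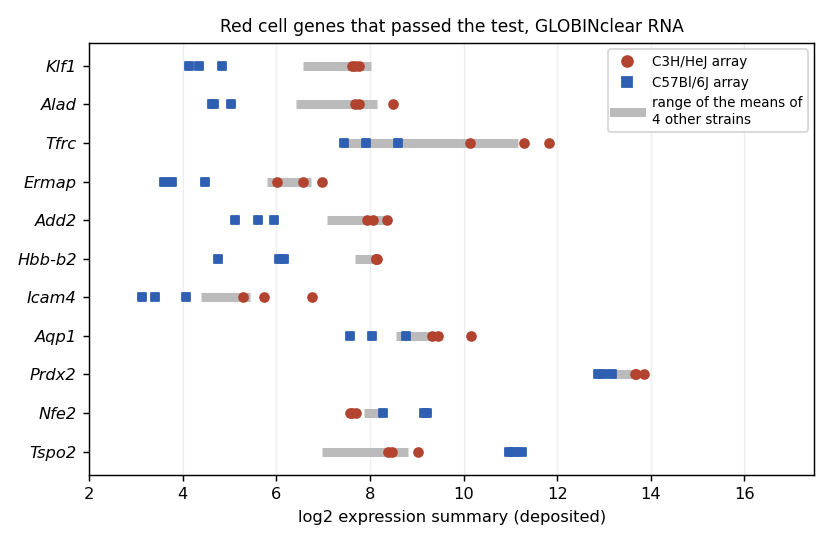
The 11 red cell genes that passed the test, by GLOBINclear array, on the deposited log2 scale (x axis); grey bars span the means of the 4 other strains. For Klf1, Alad, Ermap and Icam4 the C57Bl/6J points are to the left of both the C3H/HeJ points and the grey bar, and for Tspo2 they are to the right, at 10.96 to 11.25.

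Subunits of oxidative phosphorylation, the mitochondrial respiratory chain and ATP synthase, had 9 higher and 1 lower member of 75 tested (median 0.14, against -0.05 for all genes and backgrounds of 1.6% and 2.69%). Between 8 and 10 were higher, and the median ran from 0.07 (without C57Bl/6J replicate 2) to 0.37 (without C57Bl/6J replicate 1), when any one array was left out. With a filter at a mean of log2 5, 14 of 68 were higher. The named ones were small subunits: Ndufa13 of complex I (1.36 ± 0.21), Atp5j2 (1.12 ± 0.19) and Atp5mpl (0.89 ± 0.15) of the ATP synthase, and Uqcr10 of complex III (1.00 ± 0.17), with adjusted p-values from 0.00109 to 0.00299. Ndufa13 read 9.97, 10.44 and 10.41 in C3H/HeJ and 8.65, 8.97 and 9.12 in C57Bl/6J, and the groups did not overlap. Atp5j2 lost its call when its sets were averaged (adjusted p = 0.0507), and Uqcr10 when the 6 arrays were fitted alone (0.0647). The single lower member was Cox5a of cytochrome c oxidase (-0.97 ± 0.25, adjusted p = 0.0369, or 0.0653 with the replicate block), which also failed in the absence of any single array other than C57Bl/6J replicate 1. In whole RNA 1 subunit was higher and 1 lower. Cytosolic ribosomal proteins had 2 higher of 44, and 6 higher without C57Bl/6J replicate 1. The 2 were Rpl41 (0.61 ± 0.12) and Rpl37 (1.16 ± 0.26), a share of 4.55% called, near the 4.29% of all tested genes. Rpl37 lost its call without C3H/HeJ replicate 2 or 3 or C57Bl/6J replicate 2, and Rpl41 when its sets were averaged (adjusted p = 0.46).

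Platelet and megakaryocyte genes had 1 higher and 3 lower members of 26 tested, with a median of -0.52. That is 15.4% called, against 4.29% of all tested genes. Rgs18, a regulator of G protein signalling that restrains platelet activation, was the higher one. Rgs18 read 11.77, 11.77 and 11.83 in C3H/HeJ and 9.74, 10.25 and 10.55 in C57Bl/6J (1.61 ± 0.25, adjusted p = 0.00102), and its second set gave 1.32 ± 0.32. Pf4, the chemokine stored in platelet granules, read 12.62, 12.59 and 12.55 against 13.04, 13.30 and 13.22 (-0.60 ± 0.09, adjusted p = 0.000749). This was a small difference between groups that did not overlap. Alox12, the platelet lipoxygenase (-1.11 ± 0.24, adjusted p = 0.0137), and Vwf, von Willebrand factor (-0.98 ± 0.26, adjusted p = 0.0472, or 0.0756 with the replicate block), were also lower. Alox12 was not called without C3H/HeJ replicate 2 or 3 or C57Bl/6J replicate 2 or 3, and Vwf without any of these or C3H/HeJ replicate 1. The number of lower platelet genes was 10 of 24 with a filter at a mean of log2 5, 5 on the mean of both arrays of a mouse, 8 without C57Bl/6J replicate 1, and 1 without any of C3H/HeJ replicates 2 and 3 and C57Bl/6J replicates 2 and 3.

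White cell marker lists gave few calls. Over all tested genes 4.29% passed, against 3.85% of T cell markers, so counts of 0 or 1 do not set these lists apart. T cell markers had 0 higher and 1 lower of 26, Lat, the adaptor of the T cell receptor that platelets also contain (-1.55 ± 0.31, adjusted p = 0.0095, or 0.0864 with the 6 arrays alone). Their median of -0.47 became -0.01 without C57Bl/6J replicate 1. B cell markers had 0 of 19 in either direction (median -0.37, and 0.00 without that array), NK and cytotoxic markers 0 of 13 (median -0.66), NK gene complex receptors 0 of 17 and monocyte and macrophage markers 0 of 24 (median 0.08). The NK median was -0.30 without C57Bl/6J replicate 2 and -1.17 without C57Bl/6J replicate 3. The monocyte median was 0.65 without C57Bl/6J replicate 1, 0.40 and 0.38 without C3H/HeJ replicates 2 and 3, and fell below 0 without C3H/HeJ replicate 1 (-0.13) or C57Bl/6J replicate 3 (-0.06). Neutrophil markers had 0 of 16 past the test with a median of 1.05, and their mean level was 5.60, 6.12 and 5.86 on the C3H/HeJ arrays and 4.93, 4.72 and 5.13 on the C57Bl/6J arrays. Those means did not overlap, although no neutrophil gene passed alone by limma, and the median in whole RNA was 0.21. Among 10 markers of eosinophils, basophils and mast cells Il6ra was higher (1.18 ± 0.31, adjusted p = 0.0453, or 0.0594 with the replicate block), a call that was kept only without C57Bl/6J replicate 1 among the 6 arrays. Fcer1g, the gamma chain shared by Fc receptors and the platelet collagen receptor, was the one Fc receptor gene of 9 that passed. Fcer1g read 8.96, 9.10 and 8.92 in C3H/HeJ and 10.27, 10.52 and 10.79 in C57Bl/6J (-1.53 ± 0.19, adjusted p = 0.000158), and the other strains lay between 8.53 and 9.26.

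**Figure D4:**
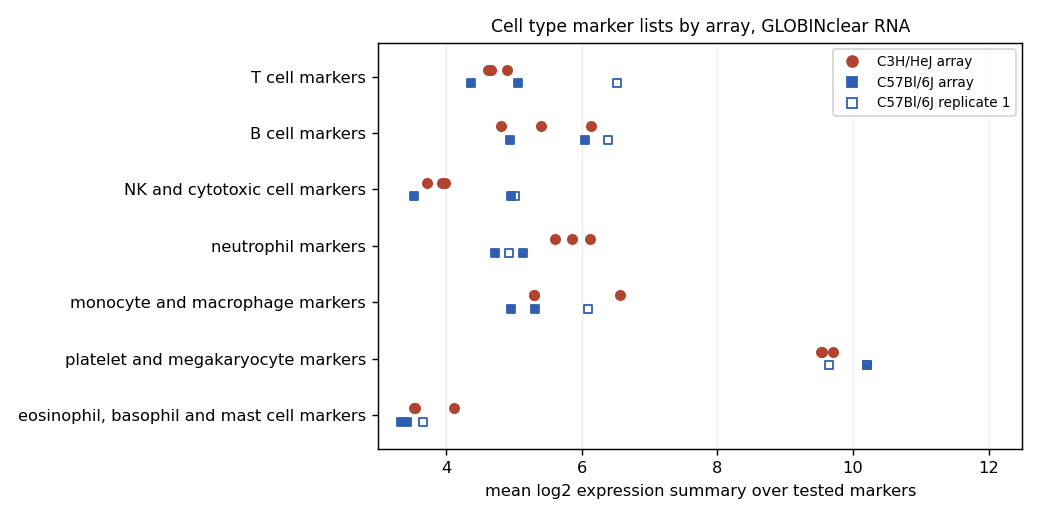
Mean deposited log2 level over the tested markers of each cell type (x axis) on each GLOBINclear array, with lists on the y axis; the open square is C57Bl/6J replicate 1. That array is furthest right for T cells at 6.52, and the neutrophil means of C3H/HeJ, 5.60 to 6.12, lie right of all C57Bl/6J means, 4.72 to 5.13.

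Glutathione and detoxification genes had 2 higher and 2 lower of 26 tested (15.4% called, against 4.29% of all tested genes). Apart from Gsta2 and Prdx2, these were Gstm5, a mu-class glutathione S-transferase, and Sod1, the cytosolic superoxide dismutase. Prdx2 is among the 2 higher by its brightest set, although its second set went the other way. Gstm5 read 11.30, 11.48 and 11.52 in C3H/HeJ and 9.77, 9.59 and 10.05 in C57Bl/6J (1.63 ± 0.15, adjusted p = 7.98e-06), and C57Bl/6J was the lowest of the 6 strains. Whole RNA gave 2.08 ± 0.28 for Gstm5. Sod1 differed by -0.88 ± 0.22 (adjusted p = 0.0321, or 0.0538 with the replicate block). The subunit Psmd4 (-1.02 ± 0.25, adjusted p = 0.0298) was the 1 of 43 proteasome genes that passed (2.33%, below the 4.29% of all tested genes). Tollip differed by -1.21 ± 0.30 (adjusted p = 0.0325, or 0.0504 with the block). The calls of Sod1, Psmd4 and Tollip were lost without any one of the 3 C3H/HeJ arrays or C57Bl/6J replicates 2 and 3.

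Tollip, an inhibitor of Toll-like receptor signalling, was the 1 of 24 genes of the Toll-like receptor 4 pathway that passed. That is 4.17%, near the 4.29% of all tested genes. Tlr4 itself, mutated in C3H/HeJ, read 3.61, 2.92 and 2.88 in C3H/HeJ and 2.77, 2.99 and 2.96 in C57Bl/6J (0.23 ± 0.14, adjusted p = 0.593), near the bottom of the scale in both. The list of genes with known strain alleles, chosen with results of these data known, had 1 higher (Alad) and 2 lower (Trim12a and Trim30d) of 17 tested. The share called was 17.6%, against 4.29% of all tested genes. Nnt, the mitochondrial transhydrogenase that is disrupted in C57Bl/6J, read 4.63, 3.81 and 4.30 against 3.78, 3.82 and 3.79 (0.45 ± 0.26, adjusted p = 0.525). Pde6b, the retinal phosphodiesterase mutated in C3H/HeJ, did not pass 2.96 on any of the 6 arrays. Glo1, glyoxalase 1, differed by -1.13 ± 0.41 (adjusted p = 0.179, or 0.046 with a filter at a mean of log2 5).

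Of the 7 tested genes around Trim5, which encode cytoplasmic restriction factors of the TRIM family, 3 were lower, against 2.69% of all tested genes. Trim12a read 3.00, 3.08 and 3.00 in C3H/HeJ and 4.41, 4.48 and 3.38 in C57Bl/6J, Trim30d read 3.00, 2.99 and 3.03 against 4.11, 3.74 and 3.80, and Trim5 read 2.91, 3.01 and 2.97 against 3.55, 3.40 and 3.26. All 3 were near the bottom of the scale in the strains other than C57Bl/6J. Trim5 was near it in C57Bl/6J too (mean 3.40), as was Trim12a on C57Bl/6J replicate 3. In whole RNA the 3 genes differed by -0.33 to 0.03 without passing. Near-identical members of this cluster can share probes, so the gene behind each set is uncertain. Oasl2, an interferon-induced member of the oligoadenylate synthetase family, was the 1 of 33 interferon-stimulated genes that passed. That is 3.03%, below the 4.29% of all tested genes. Oasl2 read 4.23, 4.95 and 4.50 against 7.13, 5.60 and 6.55 (-1.86 ± 0.32, adjusted p = 0.00265), and all other strains were at 2.85 to 3.42. Apobec3, a cytidine deaminase that restricts retroviruses, read 2.70, 2.78 and 2.90 against 4.87, 4.57 and 3.77 (-1.61 ± 0.18, adjusted p = 7.87e-05), with the other strains at 2.79 to 2.97. Trim12a, Trim5 and Oasl2 were not called when the 6 arrays were fitted alone (adjusted p = 0.17, 0.116 and 0.0983).

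In the Ly6 family of surface proteins Ly6d was the 1 of 5 that passed (20.0%, against 4.29% of all tested genes). Ly6d differed by -2.41 ± 0.54 (adjusted p = 0.0176), and its call was lost without C3H/HeJ replicate 2 or 3 or C57Bl/6J replicate 1. Of 32 immediate early and stress response genes 6.25% passed, against 4.29% of all tested genes. Hbegf was higher and the DNA damage gene Gadd45a lower (-1.06 ± 0.25, adjusted p = 0.0257). Gadd45a did not pass without C3H/HeJ replicate 2 or 3 or C57Bl/6J replicate 2 or 3. No member passed among 3 embryonic globins, 13 peptide loading and immunoproteasome genes, 13 other Toll-like and Nod-like receptors, 10 interferon-inducible GTPases, 7 genes of the Ifi200 family, 8 of the Slam family and 16 of complement.

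Whole RNA of the same mice mostly gave the same directions. It is a second measurement of the same animals, not of other ones. In whole RNA 171 genes (1.51%) passed, 66 higher (0.581%) and 105 lower (0.925%). Of these, 135 also passed in GLOBINclear RNA, all in the same direction, which is 78.9% of the whole RNA calls and 27.7% of the GLOBINclear calls. Of the 487 GLOBINclear genes 465 had the same sign in whole RNA, and 98 were below 3.5 in both strains there. Among 322 genes that differed at least 2-fold and were above 3.5 in at least one strain in whole RNA, 318 had the same sign and 121 passed. The count of whole RNA calls was 99 without C3H/HeJ replicate 2 and 99 without C3H/HeJ replicate 3.

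The strain difference itself differed between the preparations for 59 genes (0.52%) by limma on each mouse's difference, with all 18 mice in the fit. With only the 6 mice in the fit no gene passed by limma, and 863 had an unadjusted p below 0.05. The 6 genes with the smallest adjusted p in the fit of 18 mice were Hbegf, Gsta2, Ooep, Rbks, Tecpr2 and Apobec3, and for each the strain difference was wider after globin depletion. Rbks, ribokinase, read 4.18, 4.71 and 5.73 in C3H/HeJ and 3.27, 2.77 and 2.74 in C57Bl/6J after depletion (1.95 ± 0.26), and differed by 0.43 ± 0.15 in whole RNA.

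**Figure D5:**
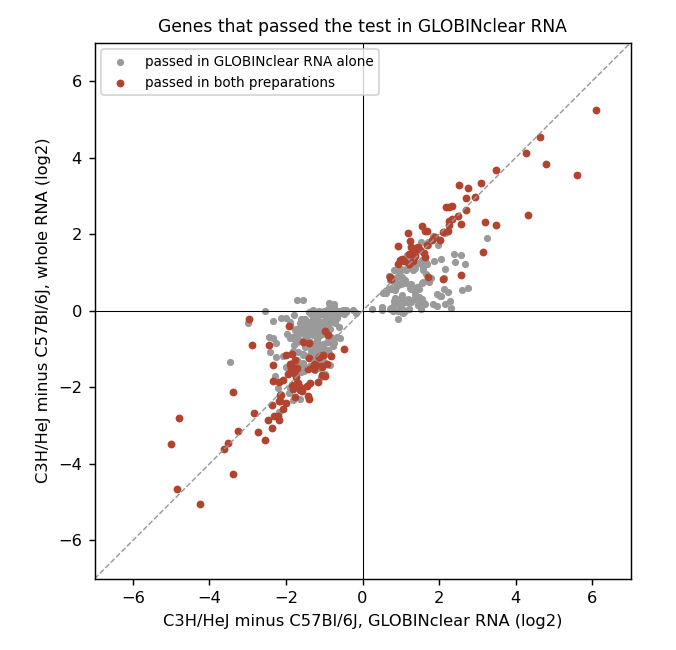
The C3H/HeJ minus C57Bl/6J difference in GLOBINclear RNA (x axis, log2) against that in whole RNA (y axis, log2) for the 487 genes that passed in GLOBINclear RNA; each point is a gene, red if it passed in both, and the dashed line is equality. The 135 red points lie below 0 on both axes or above 0 on both, and many grey points lie near 0 on the y axis.

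The other strains were used to see which parent was unusual. For 374 of the 487 genes C57Bl/6J lay outside the range of the other 4 strain means, and for 199 C3H/HeJ did, with both outside for 144. These counts are a description, because the parents' own values chose the genes. The same counts over all tested genes were not made, so whether these exceed the general share is not known. For 138 genes all 4 other strains were nearer to C3H/HeJ, as for Glrx and Ift140, and for 26 none was, as for Hbegf and Redrum. Among the 380 genes with at least a 2-fold difference, A/J was nearer to C3H/HeJ than to C57Bl/6J for 286, 129S1/ImJ for 252, DBA/2J for 243 and FVB/NJ for 207.

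Agreement between probe sets of a gene was high but not complete. Of the 487 genes 241 had another tested set, 398 sets in all, of which 329 had the same sign and 138 passed in the same direction, while 5 passed in the opposite direction. Among the 119 of those sets with a mean of at least log2 5, 109 had the same sign, 67 passed in the same direction and 3 in the opposite one.

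Called genes lay next to one another along the chromosomes in some places. Of 486 called genes with a position in the gene table, 72 (14.8%) had a called neighbour among tested genes, against 870 of 10801 genes that were not called (8.05%). There were 4 runs of 3 called genes. On chromosome 4 Ermap, Svbp and AU022252 were all higher in C3H/HeJ (2.57, 2.03 and 1.48). Svbp, a small vasohibin-binding protein, read 9.28, 9.62 and 9.69 against 7.05, 7.40 and 8.05, while AU022252 did not pass without C3H/HeJ replicate 3 or C57Bl/6J replicate 2. On chromosome 9 Cox5a, Fam219b and Scamp2 were all lower (-0.97, -0.70 and -1.44). On chromosome 11 Fam114a2 and Mfap3 were lower (-1.05 and -1.04) and Galnt10 higher (0.99), and on chromosome 12 Ppp1r13b and 5033406O09Rik were lower (-1.40 and -1.18) and Atp5mpl higher (0.89). In these last 3 runs every gene but Atp5mpl lost its call without at least one of the 6 arrays (highest adjusted p from 0.0631 to 0.155). Each of the 6 arrays ended at least 1 of these calls. Cox5a, Fam219b and Ppp1r13b also lost the call with the replicate block (adjusted p = 0.063 for Fam219b and 0.0546 for Ppp1r13b). Transcripts that overlap can share probes, and that was not tested.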

How the data were processed

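The deposited values are log2 expression summaries of 45101 probe sets on 36 arrays; their range and spread show the log2 scale. The authors used GCRMA, MAS5 and the affy package per the submitters' processing notes, with version, role and order not stated. The sources used here do not state whether both preparations were normalized as one. Such summaries compress differences near background. The number of arrays limits the precision.

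Control sets (64) were left out, and sets with a mean over all arrays above the median (2.89) were tested (22518). Of the remaining sets 34945 carried 1 gene symbol in the platform annotation, 932 several and 9160 none. A gene was represented by its single-symbol set with the highest mean (18193 genes, 11353 tested). No symbol needed updating (0), and 0 value columns were unused.

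Each preparation was fitted with limma 3.58.1 in R 4.3.3 over its 18 arrays, with strain as the factor, eBayes with an intensity trend, and Benjamini-Hochberg adjustment over all tested sets (threshold 0.05). The difference between preparations used each mouse's GLOBINclear minus whole value, with mice matched by strain and replicate number. Values after ± are standard errors. Scripts were tested on simulated data. Arrays with the same replicate number deviated together in the parents (correlations 0.475, 0.218 and 0.305 in GLOBINclear RNA, 0.357, 0.190 and 0.203 in whole RNA), so the numbers were taken to pair the samples, from the data and not the labels. The main fits held strain alone, so their p-values do not use this pairing across strains. It entered only in the alternative fits with the replicate number as a block. No arrays held identical values (0 pairs). Tables and figures were made in python 3.11.15 with pandas 2.3.3, numpy 2.4.6, scipy 1.17.1 and matplotlib 3.10.9.

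Genes were named by rule: the 15 largest differences each way among called genes without overlap and with a mean of at least log2 5 in the higher strain, up to 4 called members per list by moderated statistic, all class II and strain allele genes, genes at or above log2 6 in one strain and under 3.5 in the other, runs of at least 3 neighbouring calls, and the 6 smallest p-values for a difference between preparations. The comparison and the 32 gene lists were chosen with earlier results of these data known. Alternatives covered filters, scaling, the block, averaging of probe sets or arrays, the trend, the arrays fitted, and leaving out each array. Added after seeing the data were list counts and medians under other scalings and without C57Bl/6J replicate 1.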

Additional observations from a re-analysis of the deposited data

Results flagged for a closer look

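For 6 genes the C3H/HeJ minus C57Bl/6J difference was not the same in the GLOBINclear and whole RNA of the same mice, by limma on each mouse's difference between preparations over all 18 mice. The strain difference in GLOBINclear RNA exceeded that in whole RNA by 2.05 for Hbegf (5.60 against 3.55) and by 1.52 for Rbks (1.95 against 0.43). Where C57Bl/6J was higher, the change between preparations was -2.01 for Gsta2 (-4.80 against -2.79), -2.74 for Ooep (-2.96 against -0.22), -1.01 for Tecpr2 (-1.02 against -0.01) and -1.14 for Apobec3 (-1.61 against -0.48). Hbegf, Gsta2 and Ooep passed the strain test in both preparations, and Rbks, Tecpr2 and Apobec3 in GLOBINclear RNA alone. In whole RNA both strain means (C3H/HeJ first) were near the bottom of the scale for Ooep (2.70 and 2.93) and Rbks (3.20 and 2.78). The same held for Tecpr2 (2.89 and 2.90) and Apobec3 (2.98 and 3.45). Differences are compressed there, and the part of this in the narrower whole RNA differences was not tested. With only the 6 mice of the parents in the fit none of the 6 genes passed.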

How the results depend on the processing

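The count of genes that differed in GLOBINclear RNA (487) was 248 when the 6 arrays were fitted alone and ranged from 291 to 621 when 1 array was left out. The whole RNA count (171) ranged from 99 to 182 with 1 array left out. The count for a difference between preparations (59) was 0 with the 6 mice alone and ranged from 35 to 79 with 1 mouse left out. The other alternatives stayed within 1.5 times the counts given: for GLOBINclear RNA 376 without a filter, 494 with a filter at log2 5, 551 without the trend, 476 with the replicate block, 534 on the mean of both arrays of a mouse, 486 with probe sets averaged, 467 after quantile normalization and 493 after median centring, and for whole RNA 170 with the replicate block. Among 98 genes followed through all alternatives 1 value reversed, that of Prdx2, at -0.77 with both probe sets averaged, since its second set lies on the other side. Of the 75 that were called, 43 kept the call in every alternative that tested them. The call was lost for 23 genes with the 6 arrays alone, 10 with probe sets averaged, 9 without a filter, 7 after quantile normalization and 7 with the replicate block, which made 1 further call (H2-Ab1). Leaving out 1 array ended the call for 2 genes (C57Bl/6J replicate 1) to 17 genes (C3H/HeJ replicate 3 or C57Bl/6J replicate 2). The cause of these losses was not tested. The fits of 6 arrays held fewer arrays and took their spread from the parents alone. The 3 mice per strain limit the precision, and values near the bottom of the scale carry background.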
